A study of Mus musculus with 6 samples.

Results

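The genes of steroid synthesis and of the adrenal response to ACTH were followed in whole mouse ovaries at 16.5 days post coitum (dpc). The set was chosen by name and holds 10 genes of the 54532 in the deposited table, namely *Scarb1*, *Star*, *Cyp11a1*, *Fdxr*, *Hsd3b1*, *Cyp17a1*, *Cyp21a1*, *Cyp11b1*, *Mc2r* and *Mrap*. All 10 were found. RNA was sequenced from 3 Ctrl and 3 cKO libraries of C57BL/6 mice, which the methods describe as biological replicates. In cKO mice, *Stra8-GFPCre* removes floxed exons of *Srsf1*, a splicing factor gene, from germ cells that enter meiosis, in *Srsf1 Fl/Fl* animals. The labels call the Ctrl mice wild type and do not say whether they carry the floxed allele or the transgene. They give the tissue as ovary, although their RNA extraction text names retina. The sources used here do not say how many animals went into a library. Because the Cre acts in germ cells, *Srsf1* should be kept in the somatic cells that make steroids in a gonad, and each library mixed both kinds of cell.

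Steroid hormones are made from cholesterol. SCARB1 takes up cholesterol from lipoproteins, STAR moves it into the mitochondrion, and CYP11A1 cuts its side chain to give pregnenolone with electrons that FDXR passes on through ferredoxin. HSD3B1 turns pregnenolone into progesterone, and CYP17A1 leads on to androgens. CYP21A1 and CYP11B1 make corticosterone and are known as enzymes of the adrenal cortex, where the hormone ACTH acts through its receptor MC2R, which reaches the cell surface with the help of MRAP. The fetal mouse ovary is known as a gonad that makes little steroid compared with the fetal testis.

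Of the 7 genes that could be tested, *Mrap* alone passed an unadjusted p below 0.05, the limit the study used. It was lower in all 3 cKO libraries than in any Ctrl library, with a mean of 2.80 ± 0.266 FPKM in cKO (SD, n = 3) against 8.58 ± 4.64 FPKM in Ctrl (SD, n = 3). FPKM is the number of read pairs on a gene divided by its length and by the library size. The other 6 genes tested, *Hsd3b1*, *Fdxr*, *Scarb1*, *Star*, *Cyp17a1* and *Mc2r*, had group means that differed by less than the larger of their groups' SDs. *Cyp11a1*, *Cyp21a1* and *Cyp11b1* were too low to be tested. No gene of the whole table passed an adjusted p below 0.05 in limma, nor in voom on the recovered reads, while 761 of 17180 genes passed the unadjusted limit in limma and 724 with voom.

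Both 3β-hydroxysteroid dehydrogenase and 11β-hydroxylase genes have close copies, so the letters that keep their reads apart are shown first. The coding sequences of *Hsd3b1* and *Hsd3b6*, a copy known from the adrenal gland and testis, are both 1119 bases long and were 90.0% identical, with a longest identical run of 72 bases. The stretch of 90 coding bases in which they are most alike lies on the minus strand of GRCm38, in exon 4 of *Hsd3b1* (chr3:98856002-98856091) and exon 3 of *Hsd3b6* (chr3:98807773-98807862). Both are written 5′ to 3′ with the bases that differ in capitals.
Hsd3b1: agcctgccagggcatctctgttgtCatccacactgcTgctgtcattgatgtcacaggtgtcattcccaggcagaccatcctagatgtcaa
Hsd3b6: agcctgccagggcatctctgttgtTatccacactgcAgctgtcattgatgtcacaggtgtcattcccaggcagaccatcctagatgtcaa
Even here 2 bases differed. None of the 1706 stretches of 150 bases in the *Hsd3b1* transcript was found in the transcript of another gene. The copy of *Cyp11b1* is *Cyp11b2*, the aldosterone synthase gene, and the coding sequences were 87.1% identical over 1503 aligned bases, with an identical run of 244 bases. The 90 bases in which they differ most lie on the minus strand in exon 3 of each gene (chr15:74839248-74839337 and chr15:74853817-74853906), again with the differing bases in capitals.
Cyp11b1: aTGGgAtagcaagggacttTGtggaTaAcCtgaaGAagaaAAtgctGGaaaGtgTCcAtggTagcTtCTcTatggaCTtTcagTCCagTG
Cyp11b2: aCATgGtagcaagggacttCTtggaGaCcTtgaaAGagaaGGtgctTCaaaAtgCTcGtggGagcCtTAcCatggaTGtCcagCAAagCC
Here 32 bases differed. Reads that fall wholly in the identical run cannot be told apart, and 95 of the 3016 stretches of 150 bases in *Cyp11b1* (3.15%) were shared with *Cyp11b2*. For the other 8 genes of the set no such stretch was shared.

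The 10 genes lie on 10 chromosomes, and their places are those of the deposited table, on GRCm38. On the plus strand are *Star* (chr8:25806555-25815982), *Cyp11a1* (chr9:58006411-58027023) and *Mrap* (chr16:90738207-90749785). On the minus strand are *Scarb1* (chr5:125277087-125341094), *Fdxr* (chr11:115268024-115277050), *Hsd3b1* (chr3:98852194-98859794), *Cyp17a1* (chr19:46667165-46672974), *Cyp21a1* (chr17:34801348-34804561), *Cyp11b1* (chr15:74834125-74841643) and *Mc2r* (chr18:68406907-68429251). An exon of *Cyp11a1* overlaps one of *Gm17322* on the same strand, and exons of *Cyp21a1* and *Cyp11b1* overlap those of *Tnxa* and *Gml2* on the other strand. None of the sources used here says whether strand was used in counting. The RefSeq promoter table for GRCm38.p6 held 3 of the 10 genes, *Hsd3b1*, *Cyp11a1* and *Fdxr*, with 4 start sites. The letters CAAGGNCA, to which the NR5A1 protein (SF-1) binds, were on neither strand of the 250 bases before any of these starts, and were in 5.53% of all 32851 promoters of the table. The letters TATAAA were also in none of the 4, against 12.4% of all promoters.

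Reads on genes numbered between 15548757 and 16756795 in Ctrl and between 14212164 and 16784241 in cKO. The targeted gene, *Srsf1*, stood at 80.2, 70.1 and 63.1 FPKM in Ctrl 1, 2 and 3 and at 32.4, 37.0 and 36.4 FPKM in cKO 1, 2 and 3 (log2 fold change of FPKM + 1 of -0.99 ± 0.13 (SE), limma, adjusted p = 0.497; groups that did not overlap). The 5 germ-cell markers *Ddx4*, *Dazl*, *Sycp1*, *Sycp3* and *Mael* were present in every library, but their summed level was uneven within the groups, at 105, 233 and 424 FPKM in Ctrl 1, 2 and 3 and at 468, 171 and 562 FPKM in cKO 1, 2 and 3. The 8 pregranulosa markers, among them *Foxl2* and *Wnt4*, summed to 312, 293 and 269 FPKM in Ctrl and to 251, 370 and 295 FPKM in cKO. Ctrl 1 and cKO 2 thus had the lowest germ-cell and the highest pregranulosa sums. Of all 17180 genes tested, cKO 2 was the highest of the 6 libraries in 22.3% and Ctrl 1 in 18.9%.

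**Figure D1:**
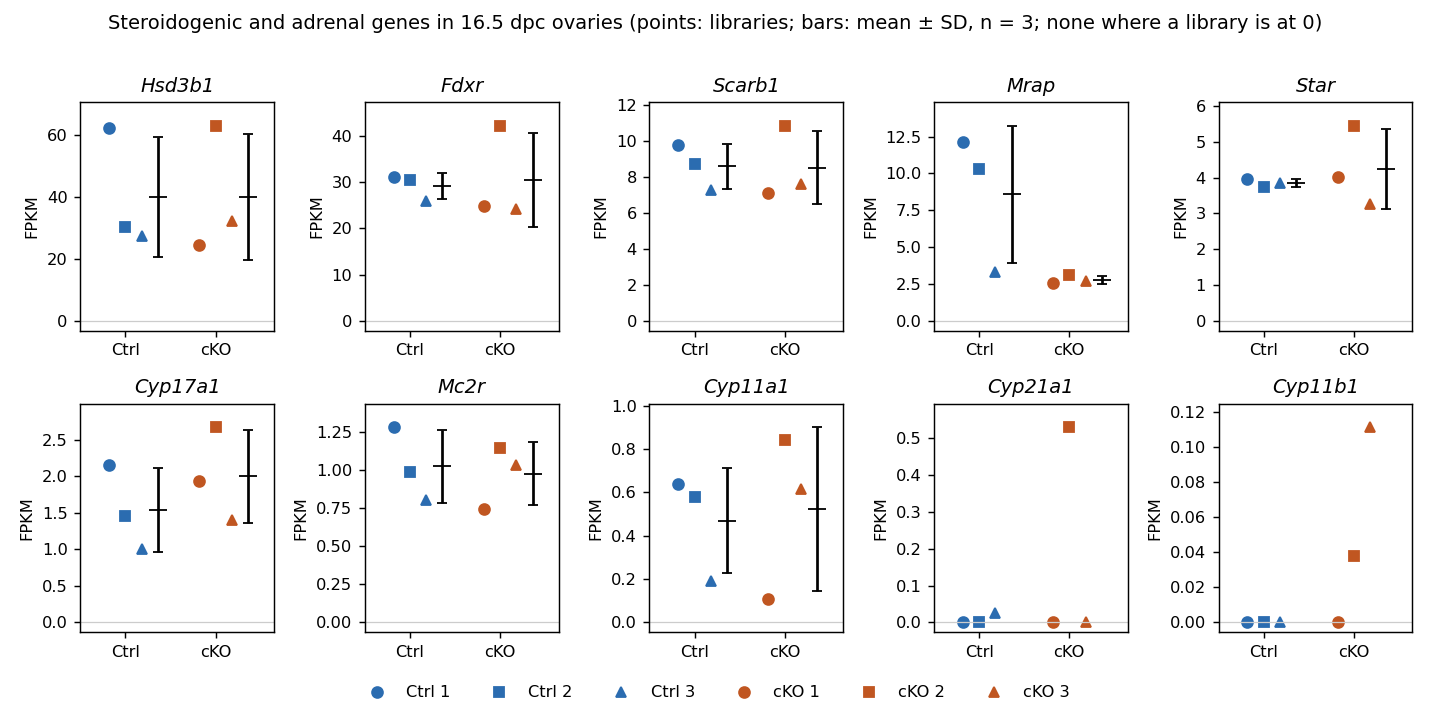
Level of each of the 10 genes in FPKM (vertical axis, linear, from 0) in the Ctrl (blue) and cKO (orange) libraries, ordered by mean level. Points are libraries, and bars are the mean ± SD of 3 libraries, drawn only for genes above 0 in every library. *Mrap* is the gene whose Ctrl points, 3.33 to 12.1 FPKM, all lie above its cKO points, 2.58 to 3.09 FPKM, while cKO 2 is the highest point for 7 of the 10 genes.

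By mean FPKM, with the gene lengths of the deposited table, *Hsd3b1* was first at 40.0. It was followed by *Fdxr* at 29.8, *Scarb1* at 8.56, *Mrap* at 5.69 and *Star* at 4.04. Below them were *Cyp17a1* at 1.77, *Mc2r* at 1.00, *Cyp11a1* at 0.496, *Cyp21a1* at 0.0926 and *Cyp11b1* at 0.0248. The ranges over the 6 libraries were apart at 2 places in this order, between *Fdxr* and *Scarb1* (3.48-fold in mean) and between *Star* and *Cyp17a1* (2.28-fold). The length used was 8500 bases for *Scarb1*, 4804 for *Cyp11a1*, 2806 for *Fdxr* and 1855 for *Hsd3b1*. Their transcripts with the longest coding sequence have 2521, 2120, 1948 and 1855 bases. The order, and the gap between *Fdxr* (966 to 1983 reads) and *Scarb1* (918 to 1549 reads), thus depends on the length chosen. *Hsd3b1* was above *Fdxr* in 4 of 6 libraries, *Scarb1* above *Mrap* in 4 of 6 and *Mrap* above *Star* in 2 of 6, so those neighbours did not differ beyond their spread. *Cyp17a1* was above *Mc2r* and *Mc2r* above *Cyp11a1* in 6 of 6 libraries, although the ranges overlapped. The step that feeds the whole pathway, *Cyp11a1*, was therefore among the lowest genes, at 8 to 68 reads a library, while *Hsd3b1*, which acts after it, had 704 to 1959 reads.

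The first genes in the path bring cholesterol in. *Scarb1*, the HDL receptor, stood at 9.78, 8.76 and 7.27 FPKM in Ctrl 1, 2 and 3 and at 7.11, 10.9 and 7.61 FPKM in cKO 1, 2 and 3. The highest library was cKO 2 and the lowest was cKO 1, so the cKO values enclosed all Ctrl values, and the log2 fold change of FPKM + 1 in cKO against Ctrl was -0.02 (95% interval -0.47 to 0.42, limma, adjusted p = 0.995; exact permutation p = 0.9). *Star*, whose protein carries cholesterol to the inner mitochondrial membrane, stood at 3.96, 3.74 and 3.86 FPKM in Ctrl and at 4.01, 5.45 and 3.25 FPKM in cKO. The Ctrl libraries were close together (3.85 ± 0.108 FPKM, SD, n = 3) and the cKO libraries were spread on both sides of them (4.24 ± 1.11 FPKM, SD, n = 3). The log2 fold change was 0.09 (95% interval -0.32 to 0.50, limma, adjusted p = 0.986; exact permutation p = 0.7). Without cKO 2 it was -0.071.

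*Cyp11a1*, the side-chain cleavage enzyme, was at 0.638, 0.579 and 0.191 FPKM in Ctrl 1, 2 and 3 and at 0.108, 0.844 and 0.616 FPKM in cKO 1, 2 and 3, from 46, 45 and 16 reads and 8, 68 and 42 reads. The groups overlapped throughout, with 107 reads in Ctrl and 118 in cKO. Its mean of 0.496 FPKM fell just under the minimum of 0.5 for testing, and in the fit with no minimum its log2 fold change was 0.03 (limma), short of the limit. Its partner *Fdxr*, ferredoxin reductase, which serves other mitochondrial enzymes as well, was at 31.1, 30.5 and 25.9 FPKM in Ctrl and at 24.8, 42.1 and 24.2 FPKM in cKO. Here cKO 2 was above every Ctrl library and the other cKO libraries were below them all, and the log2 fold change was 0.02 (95% interval -0.52 to 0.55, limma, adjusted p = 0.999; exact permutation p = 1). It was -0.24 without cKO 2.

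*Hsd3b1* had the largest SD of log2(FPKM + 1) among the enzymes that were tested, although *Cyp17a1* spanned a slightly larger fold from lowest to highest library (2.66 against 2.56). It stood at 62.4, 30.4 and 27.3 FPKM in Ctrl 1, 2 and 3 and at 24.5, 62.9 and 32.2 FPKM in cKO 1, 2 and 3. One library of each group, Ctrl 1 and cKO 2, was at about the same high level, and the other 4 lay between 24.5 and 32.2 FPKM. The group means were 40.0 ± 19.4 FPKM in Ctrl and 39.9 ± 20.3 FPKM in cKO (SD, n = 3 each), with a log2 fold change of -0.02 (95% interval -1.02 to 0.99, limma, adjusted p = 0.999; exact permutation p = 1). The direction was set by single libraries: the value was 0.34 without Ctrl 1, and -0.40 without cKO 2. *Cyp17a1*, which makes androgen precursors, stood at 2.15, 1.45 and 1.00 FPKM in Ctrl and at 1.94, 2.67 and 1.40 FPKM in cKO. Its groups overlapped, with cKO 2 again highest, and the log2 fold change was 0.25 (95% interval -0.31 to 0.80, limma, adjusted p = 0.978; exact permutation p = 0.5). With the mean level of the germ-cell markers as a covariate, a fit added after the values were seen, it was 0.45 and past the unadjusted limit (limma, adjusted p = 0.786).

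**Figure D2:**
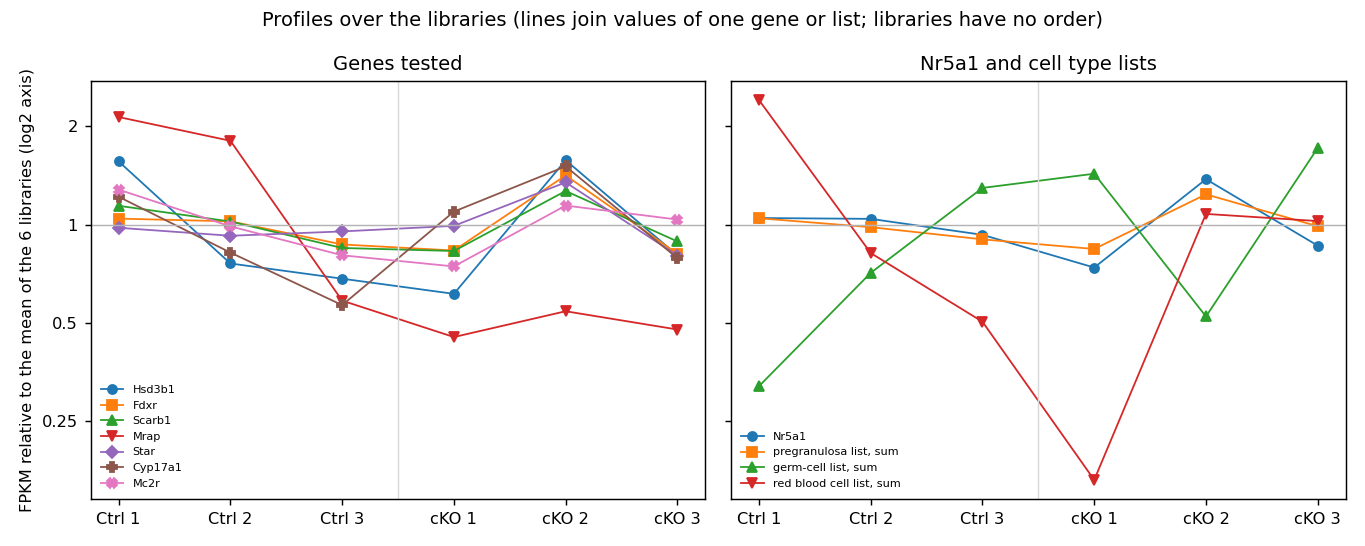
Level in each library relative to the mean of the 6 libraries (vertical axis, log2 scale), for the 7 genes tested (left) and for *Nr5a1* and the summed pregranulosa, germ-cell and red blood cell lists (right). Lines join the values of 1 gene or list and carry no order; *Hsd3b1* is highest in Ctrl 1 (1.56) and cKO 2 (1.57), where the germ-cell sum is lowest (0.320 and 0.524), and *Mrap* is highest in Ctrl 1 (2.13) and Ctrl 2 (1.81).

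The libraries shared a pattern over much of the set. cKO 2 was the highest library for 5 of the 7 genes tested, *Star*, *Cyp17a1*, *Hsd3b1*, *Scarb1* and *Fdxr*, and Ctrl 1 for the other two, *Mc2r* and *Mrap*. Against the median of the other 5 libraries, cKO 2 was 2.07-fold for *Hsd3b1*, 1.84-fold for *Cyp17a1*, 1.63-fold for *Fdxr*, 1.43-fold for *Scarb1* and 1.41-fold for *Star*. The same library was the highest for 4 of the 8 pregranulosa markers, *Foxl2*, *Wnt4*, *Rspo1* and *Irx3*, and for 6 of the 12 tested regulators and receptors of the pathway, among them *Nr5a1*, the SF-1 gene, at 1.48-fold and *Gata4* at 1.43-fold. It was not high for all of them: *Lgr5*, a pregranulosa marker, was at 10.3 FPKM against 10.1 to 14.0 FPKM in the other 5 libraries, and *Nr5a2*, a relative of *Nr5a1*, was lowest in cKO 2, at 1.03 FPKM. The low germ-cell sum of cKO 2 and Ctrl 1 went with these values, and its part in them was not tested. In a bulk library, fewer cells of a type and less RNA per cell cannot be told apart.

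*Mrap*, the accessory protein gene of the ACTH receptor, stood at 12.1, 10.3 and 3.33 FPKM in Ctrl 1, 2 and 3 (288, 263 and 92 reads) and at 2.58, 3.09 and 2.72 FPKM in cKO 1, 2 and 3 (63, 82 and 61 reads). The cKO libraries were close together, and Ctrl 3 lay just above them, far from the other two Ctrl libraries. The log2 fold change was -1.19 ± 0.40 (SE, 95% interval -2.14 to -0.23, limma, unadjusted p = 0.0218), and the exact permutation test gave p = 0.1, two-sided, the smallest value that 3 libraries against 3 allow. The adjusted p over all 17180 genes was 0.978, and between 0.339 and 1 over the alternatives. So 1 of the 7 genes tested passed the unadjusted limit, beside 4.43% of all genes tested, and it was lower in cKO, beside 1.75%. The groups did not overlap for *Mrap* alone among the 7, beside 8.68% of all genes tested, or 4.1% in that direction, and 1.47% were both apart in that direction and past the limit. Over the 7 genes the median of the log2 fold changes was -0.02, and over all genes tested it was -0.01.

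The call on *Mrap* was lost in 4 of the 6 fits with 1 library left out. It missed the unadjusted limit (limma) without Ctrl 1, where the log2 fold change was -0.88, without Ctrl 2 (-0.99), without cKO 1 (-1.15) and without cKO 3 (-1.17). It was past the limit without Ctrl 3 (-1.68, adjusted p = 0.350) and without cKO 2 (-1.24). Without cKO 1 or cKO 3 the log2 fold change stayed close to the -1.19 of all libraries, while its SE was 0.49 in place of 0.40. *Mc2r*, the ACTH receptor gene, stood at 1.28, 0.989 and 0.806 FPKM in Ctrl and at 0.745, 1.14 and 1.04 FPKM in cKO, from 18 to 30 reads a library. Its groups overlapped, and the log2 fold change was -0.03 (95% interval -0.43 to 0.36, limma, adjusted p = 0.994; exact permutation p = 0.8). *Mrap2*, a relative of *Mrap*, had a log2 fold change of -0.07 and did not pass the limit (limma).

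**Figure D3:**
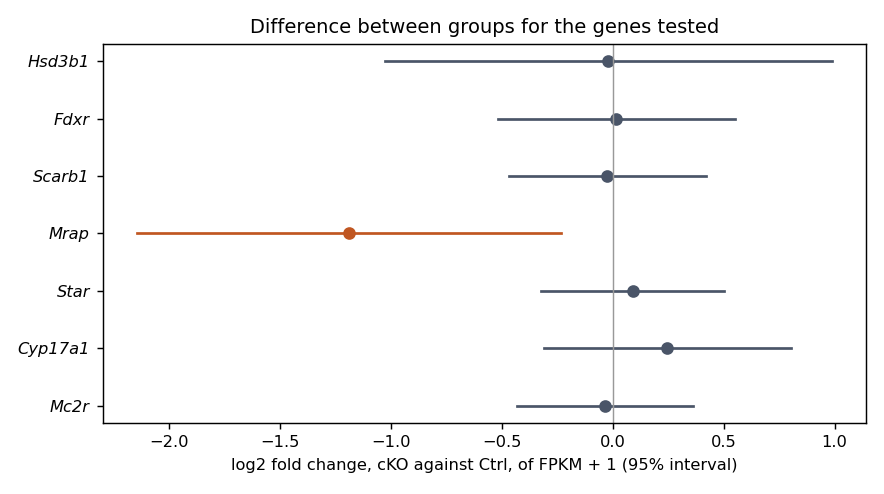
Log2 fold change of FPKM + 1, cKO against Ctrl (horizontal axis), with its 95% interval from limma for the 7 genes tested. The interval of *Mrap* (orange, -2.14 to -0.23) lies below 0 and the other 6 (grey) include 0, with that of *Hsd3b1* the widest at -1.02 to 0.99.

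Markers of other cell types were set beside *Mrap*. ACTH receptors are also known from fat cells. The 5 fat cell markers *Adipoq*, *Fabp4*, *Plin1*, *Cidec* and *Lep*, a list added after the values were seen, were each under 1 FPKM in every library and summed to 0.731 to 0.833 FPKM in Ctrl and 0.886 to 1.39 FPKM in cKO. The 7 red blood cell genes summed to 23306, 7928 and 4887 FPKM in Ctrl 1, 2 and 3 and to 1603, 10445 and 9932 FPKM in cKO 1, 2 and 3, and 0 of 7 passed the unadjusted limit (limma, median log2 fold change -0.96). Ctrl 1 was highest both for this sum and for *Mrap*. The 6 mesonephros markers, among them *Pax2* and *Pax8*, summed to 6.01, 4.96 and 3.22 FPKM in Ctrl and 2.90, 3.67 and 2.51 FPKM in cKO, with 0 of 3 genes tested past the limit. Their sum was highest in Ctrl 1 and Ctrl 2, as *Mrap* was. The 10 adrenal medulla markers also had a lower sum in every cKO library than in any Ctrl library, in the direction of *Mrap*. The sums were 2.79 to 3.12 FPKM in cKO and 3.36 to 5.40 FPKM in Ctrl. Within Ctrl the order was not that of *Mrap*: this sum was lowest in Ctrl 1, where *Mrap* was highest. The part of these lists in the result on *Mrap* was not tested.

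For the 2 tested genes with an SD of log2(FPKM + 1) of at least 0.5 over the 6 libraries, the genes with the most similar profile were listed, by the root mean square difference of centred log2(FPKM + 1). Nearest to *Mrap* was *Gm24449*, a small nuclear RNA gene, at a difference of 0.152, with 1.89 and 2.33 FPKM in Ctrl 1 and Ctrl 2 and 0 in the other 4 libraries. The platelet glycoprotein gene *Gp9* came next at 0.179, with 7.57, 6.38 and 2.34 FPKM in Ctrl and 1.32, 1.22 and 1.92 FPKM in cKO. *Abcb4*, a phospholipid transporter gene, followed at 0.191, with 7.50, 5.71 and 1.24 FPKM in Ctrl and 1.32, 1.07 and 1.75 FPKM in cKO. In a platelet list of 4 added after the values were seen, in which *Gp9* was included because of this profile, the other log2 fold changes were 0.02 for *Pf4*, -0.06 for *Itga2b* and 0.58 for *Ppbp*, and these did not pass the unadjusted limit (limma). Nearest to *Hsd3b1* were *Eps8l1* at a difference of 0.0823, *Cd83* at 0.144 and *Dync1i1* at 0.150. *Eps8l1*, an actin regulator gene, had the same 2 high libraries, with 2.53, 0.614 and 0.721 FPKM in Ctrl and 0.546, 2.73 and 0.910 FPKM in cKO.

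The adrenal enzymes were at or near 0 in most libraries. *Cyp21a1*, the 21-hydroxylase gene, had 0, 0 and 1 read in Ctrl 1, 2 and 3 and 0, 19 and 0 reads in cKO 1, 2 and 3, so 19 of its 20 reads came from cKO 2, where it reached 0.529 FPKM. *Cyp11b1*, the 11β-hydroxylase gene, had no read in Ctrl and 0, 2 and 5 reads in cKO. A count of 0 allows up to 3 reads, which is 0.0802 to 0.0987 FPKM for *Cyp21a1* and 0.0543 to 0.0668 FPKM for *Cyp11b1*, counting error only. With no minimum, the log2 fold change was 0.19 for *Cyp21a1* and 0.07 for *Cyp11b1*, and neither passed the limit (limma).

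**Figure D4:**
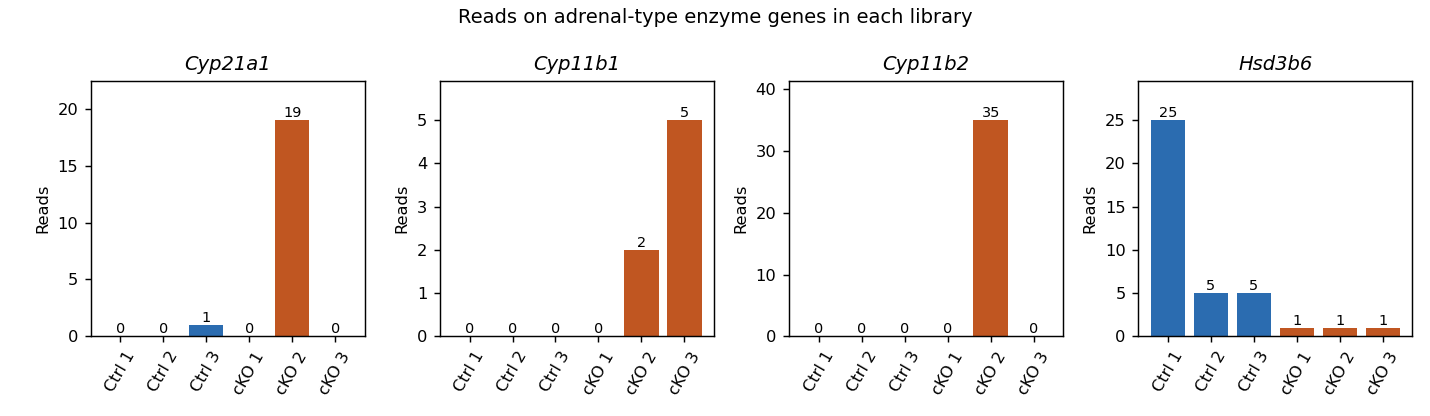
Reads (vertical axis, linear from 0, own scale for each gene) on *Cyp21a1*, *Cyp11b1*, *Cyp11b2* and *Hsd3b6* in the 3 Ctrl (blue) and 3 cKO (orange) libraries. The reads on *Cyp21a1* (19) and *Cyp11b2* (35) come almost wholly from cKO 2, and those on *Hsd3b6* mostly from Ctrl (25, 5 and 5).

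The next 3 genes were singled out after their values were seen. *Cyp11b2*, which makes aldosterone, had 35 reads (1.28 FPKM) in cKO 2 and none in the other 5 libraries, where 3 reads would be 0.106 to 0.130 FPKM. Where the 2 reads on *Cyp11b1* in the same library fell, inside or outside the run it shares with *Cyp11b2*, the values do not show. *Hsd3b6* had 25, 5 and 5 reads in Ctrl and 1 read in each cKO library, and *Hsd11b1*, which regenerates active corticosterone, had 9, 7 and 6 reads in Ctrl and 2, 3 and 2 in cKO. For both genes the groups did not overlap and cKO was lower. Among all genes tested the groups were apart for 8.68%, or 4.1% in that direction. That share leaves out both genes, which were under the minimum for testing. In the fit with no minimum, *Hsd11b1* passed the unadjusted limit (log2 fold change -0.098, limma, adjusted p = 0.882) and *Hsd3b6* did not (-0.41). In that fit 1331 of 33797 genes passed it. Library cKO 2, which held the *Cyp21a1* and *Cyp11b2* reads, was also highest for *Akr1c18*, a progesterone-inactivating enzyme of the ovary and adrenal gland, at 4.84 FPKM against 1.33 to 2.71 FPKM in the other 5.

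Markers of the adrenal gland itself were followed as lists. The 8 cortex markers summed to 28.6, 23.7 and 22.6 FPKM in Ctrl 1, 2 and 3 and to 22.7, 30.5 and 21.3 FPKM in cKO 1, 2 and 3, most of it from *Dab2* and *Kcnk3*, which other tissues also express, and 0 of the 4 tested passed the unadjusted limit. The 10 medulla markers summed to 3.36, 5.40 and 5.11 FPKM in Ctrl and 2.92, 2.79 and 3.12 FPKM in cKO, so the groups did not overlap, and 8 of the 10 were under 1 FPKM in every library. Of the 3 tested, 0 passed the unadjusted limit (limma). The groups were apart for 1 of these 3, *Chga*, beside 8.68% of all genes tested. *Dbh*, the noradrenaline synthesis enzyme gene, had no read in Ctrl and 4 in cKO. cKO 2 thus had the highest cortex sum and the lowest medulla sum. The medulla markers were mixed in that library, by genes picked after their values were seen. *Slc18a1* (44 reads) and *Chgb* (6 reads) were lowest in cKO 2. *Th* was highest there (10 reads), and *Pnmt* had 13 reads in cKO 2 against 1 in cKO 1 and 1 in cKO 3. The cortex list holds *Cyp11b2* and *Akr1c18*, at 1.28 and 4.84 FPKM in cKO 2 and already named above. Its sum is therefore not independent of those genes. *Dab2* and *Kcnk3* were highest in Ctrl 1, at 14.6 and 9.59 FPKM, against 13.5 and 9.50 FPKM in cKO 2.

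Of 50 other genes of steroid synthesis and action, 43 could be tested, 0 rose and 1 fell at the unadjusted limit, beside 2.68% and 1.75% of all genes tested. The log2 fold change was above 0 for 26 of the 43, with a median of 0.04.

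Of the other steroid enzymes, 10 of 15 were tested, 0 passed the limit and the median log2 fold change was 0.17. *Cyb5a*, which aids CYP17A1, was the highest at a mean of 39.9 FPKM, and *Cyp19a1*, the aromatase gene, was the lowest, with 17 reads in Ctrl and 5 in cKO, of which 13 were in Ctrl 3. *Fdx1*, the ferredoxin gene, was at 9.82, 8.93 and 9.61 FPKM in Ctrl and 8.83, 12.6 and 8.33 FPKM in cKO, with cKO 2 highest, as for its reductase *Fdxr*. All 15 genes of cholesterol supply were tested, 0 passed the limit and the median was 0.08. Their highest gene, *Hmgcs1* of cholesterol synthesis, was at 45.3, 36.9 and 38.5 FPKM in Ctrl and 46.4, 49.4 and 51.0 FPKM in cKO, groups that did not overlap (log2 fold change 0.28, limma, adjusted p = 0.978; exact permutation p = 0.1). The groups were also apart for *Sqle* (0.30), so for 2 of the 15 genes, beside 8.68% of all genes tested.

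Among the regulators and hormone receptors, 12 of 14 were tested, 0 passed the limit and the median was -0.06. *Gata4* was the highest at a mean of 96.7 FPKM. *Fshr*, the FSH receptor gene, was the lowest, with 2 reads in Ctrl 3 and none elsewhere. *Nr5a1*, whose protein drives many genes of this pathway, was at 42.3, 42.0 and 37.5 FPKM in Ctrl and 29.8, 55.6 and 34.8 FPKM in cKO (log2 fold change -0.07, limma, adjusted p = 0.991), and *Lhcgr*, the LH receptor gene, at 4.34, 2.56 and 2.89 FPKM in Ctrl and 2.38, 5.60 and 5.43 FPKM in cKO (0.32, adjusted p = 0.978). Among the steroid receptors, all 6 of which were tested with a median of -0.02, *Nr3c1*, the glucocorticoid receptor gene, was the highest at a mean of 9.23 FPKM, and *Pgr*, the progesterone receptor gene, was the lowest at 0.633 FPKM.

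The sums of the remaining cell type lists overlapped between the groups. The 7 fetal testis markers summed to 6.79 to 8.52 FPKM in Ctrl and 7.001 to 7.57 FPKM in cKO, the 5 liver markers to 2.57 to 7.21 FPKM and 3.33 to 4.67 FPKM, the 5 macrophage markers to 26.0 to 30.6 FPKM and 18.6 to 30.7 FPKM, the 5 endothelial markers to 52.9 to 65.9 FPKM and 52.7 to 62.1 FPKM, and the 8 stromal markers to 555 to 692 FPKM and 537 to 615 FPKM. None of their genes passed the unadjusted limit (limma), nor did a pregranulosa marker. Among the germ-cell markers, 1 of 5 did, *Dazl*, which was higher in cKO (log2 fold change 1.60, limma, adjusted p = 0.978) with groups that overlapped.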

How the data were processed

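RNA of whole ovaries at 16.5 dpc was sequenced in 6 libraries, and the labels gave the group and number of each. The authors selected poly(A) RNA, aligned reads to GRCm38 (mm10 in the submitters' processing notes) with HISAT2 2.0.5, used featureCounts for the reads on each gene and deposited FPKM, the counts divided by gene length and by library size. Reads given here were recovered from FPKM and gene length, and every value lay within 0.05 of a whole number. Between 14212164 and 16784241 reads lay on genes in each library, so genes with few reads carry large counting error.

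The 10 genes, the gene lists and the tests were chosen with earlier results of these data known. Genes named are the 10, the listed genes past the limit or highest or lowest in their list, the most similar profiles, and others marked as chosen later. For the 17180 genes whose mean FPKM reached 0.5, log2(FPKM + 1) was fitted in limma 3.58.1 (R 4.3.3), with group as the only term, an intensity trend, two-sided tests and Benjamini-Hochberg adjustment over all genes. A fold change on this scale understates that of low genes. Single genes were also compared by an exact permutation test. The fit was tested on simulated data. Tables and figures were made with matplotlib 3.10.9, scipy 1.17.1, pandas 2.3.3 and numpy 2.4.6 in Python 3.11.15, and exons were taken from GENCODE M21 on GRCm38.

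As alternatives, the pseudocount was 0.1 or 0.5, the minimum mean FPKM was 1 or was dropped, values were scaled by median ratios or quantile normalized, the recovered reads were fitted with voom in limma, the trend was left out, the replicate number was a block, and each library was left out in turn. The germ-cell covariate and the fat cell and platelet lists were added after the values were seen. Values of 1 gene under the naming rule are not reported here.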

Additional observations from a re-analysis of the deposited data

How the results depend on the processing

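*Mrap* was lower in cKO under all 16 alternatives and past the unadjusted limit in 12 (limma). Its log2 fold change ran from -1.68 to -0.88 when single libraries were left out, and the 4 fits that missed the limit were those without Ctrl 1, Ctrl 2, cKO 1 or cKO 3. It was -0.88 with the germ-cell covariate and still past the limit. *Dazl*, a marker in that covariate, was itself higher in cKO (log2 fold change 1.60, limma). That fit therefore cannot separate the germ-cell level from the group. With single libraries left out, the other values ran from -0.071 to 0.23 for *Star*, 0.09 to 0.42 for *Cyp17a1*, -0.40 to 0.34 for *Hsd3b1*, -0.11 to 0.055 for *Mc2r*, -0.19 to 0.082 for *Scarb1* and -0.24 to 0.15 for *Fdxr*, and 0 of these passed the limit. Directions also turned with the germ-cell covariate for *Hsd3b1* (0.39), *Mc2r* (0.054) and *Scarb1* (0.13), and with quantile normalization for *Fdxr* (-3.21e-05). Members past the limit numbered 0 to 1 with single libraries left out and 2 with the germ-cell covariate. The other pathway genes past the limit numbered 0 to 6 with single libraries left out, the 6 without cKO 2, and 2 with no minimum, 2 with median-ratio scaling, 0 with the replicate block and 7 with the germ-cell covariate. Over all genes, those called higher (460) ran from 201 to 1457 and those called lower (301) from 163 to 1036 with single libraries left out, the highest without cKO 2, and were 736 and 595 with no minimum; 538 were lower with the germ-cell covariate. An adjusted p below 0.05 was reached by 4 genes without Ctrl 1, and by 0 genes in the other alternatives. The causes were not tested.

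The replicate numbers did not pair the libraries: the correlations of same-numbered libraries' deviations from their group means were -0.389, -0.0297 and 0.117. Only cKO 3 correlated best with the library of its own number in the other group. With the replicate block, *Mrap* was at -1.19 and still past the limit, and 681 genes passed the limit in place of 761. Depth limits what can be said of *Cyp21a1*, *Cyp11b1*, *Cyp11b2* and *Hsd3b6*, and *Mc2r* rests on 18 to 30 reads a library.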
